A study of Mus musculus with 9 samples.

Results

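Chemokines are small secreted proteins that draw leukocytes along a gradient by binding receptors on their surface. Gut epithelial cells make several of them, and each is known for the cells it recruits: Ccl25 for lymphocytes that carry Ccr9, Ccl20 for cells that carry Ccr6, and Cxcl1, Cxcl2 and Cxcl5 for neutrophils through Cxcr2. Cx3cl1 and Cxcl16 differ from the others in structure, since both are made as membrane-anchored proteins with the chemokine domain on a stalk and are shed from the cell by the proteases Adam10 and Adam17. The genes described here were the 9 chemokine genes Ccl20, Ccl25, Ccl28, Cxcl1, Cxcl2, Cxcl5, Cxcl12, Cxcl16 and Cx3cl1, chosen by name as ligands that epithelium is known to make. The table of 23955 genes held a row for 8 of the 9, and Ccl28 was not analysed here.

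Expression was measured by RNA-seq in 9 mouse gut epithelial organoid cultures, 3 in each of 3 groups. MIN organoids were grown from normal-looking gut epithelium of APCmin/+ mice, which carry a mutated copy of the tumour suppressor Apc in every cell. Adenoma organoids were grown from adenomatous polyps of such mice, and Sulindac organoids were polyp organoids treated with the non-steroidal anti-inflammatory drug sulindac. All 3 groups therefore carried the Apc mutation and all were grown in the same medium, with Noggin, EGF, bFGF, R-spondin1 and B27, so that no group stands for wild-type epithelium. The age of the mice, the gut segment, and the dose and duration of sulindac in the organoids were not given in the sources used here. The 3 samples of a group are described as biological replicates, and no animal or culture is named for them.

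The libraries held 30881206 to 48412477 counts. Levels below are CPM, counts scaled to a common library size, after TMM scaling, which adjusts each library for its composition. A gene is called where edgeR's quasi-likelihood test, adjusted over all genes tested, passes an FDR of 1%. The summed CPM of 7 epithelial markers ranged from 5495 to 7979 for MIN, from 3215 to 4235 for Adenoma and from 4510 to 5386 for Sulindac. The 13 leukocyte markers with a row summed to 55.4 to 89.8, 3.07 to 5.95 and 5.18 to 7.09 CPM in the same order. Lcp1, an actin-bundling protein gene, made up most of these sums, with means of 76.0, 3.23 and 5.36 CPM, and none of the other 12 exceeded 37 counts in any sample. Ptprc, the pan-leukocyte marker CD45, had 0 to 1 counts in MIN, 4 to 8 in Adenoma and 0 in every Sulindac sample. The 9 mesenchymal markers summed to 3.97 to 4.22, 2.32 to 3.33 and 0.948 to 1.34 CPM, with Col1a2, Col3a1, Dcn and Lum at 0 counts in every sample. Pdgfrb had 127 to 176 counts in MIN and at most 1 elsewhere, while Pdgfra and Des were called higher in Adenoma than in MIN and Col1a1 had its highest counts, 32 to 54, in Adenoma. The 5 endothelial markers summed to 1.44 to 3.16, 3.01 to 7.61 and 3.73 to 4.71 CPM, most of it Vwf, with 41 to 244 counts, while Cdh5 had at most 1 count and Pecam1 was called lower in Adenoma than in MIN.

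Promoter sequences are shown for 5 of the chemokine genes, the 4 that were called in the comparison of Adenoma with MIN and Cxcl2, the relative of Cxcl1, so that their motifs can be set beside the levels. RefSeq promoters (build GRCm38.p6) were found for 6 of the 8 genes, and the 250 bases before the annotated start were searched on both strands for the NF-kB consensus motif (kB), for TGANTCA, the AP-1 site, and for CTTTGAT, the site of the Wnt pathway's TCF factors. Capitals mark the matches. All 5 lie on the plus strand, are written 5′ to 3′ and end at the base before the start.
Ccl20, chr1:83116516-83116765: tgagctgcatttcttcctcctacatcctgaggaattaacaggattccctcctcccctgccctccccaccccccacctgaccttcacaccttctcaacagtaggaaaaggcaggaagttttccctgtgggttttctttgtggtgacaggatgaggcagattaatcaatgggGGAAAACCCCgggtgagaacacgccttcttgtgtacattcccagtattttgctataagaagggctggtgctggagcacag
Cxcl1, chr5:90890995-90891244: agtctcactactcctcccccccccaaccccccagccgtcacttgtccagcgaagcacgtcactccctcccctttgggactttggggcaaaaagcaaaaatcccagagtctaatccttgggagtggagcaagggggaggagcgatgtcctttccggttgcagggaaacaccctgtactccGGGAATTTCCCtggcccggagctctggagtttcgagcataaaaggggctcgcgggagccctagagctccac
Cxcl2, chr5:90903649-90903898: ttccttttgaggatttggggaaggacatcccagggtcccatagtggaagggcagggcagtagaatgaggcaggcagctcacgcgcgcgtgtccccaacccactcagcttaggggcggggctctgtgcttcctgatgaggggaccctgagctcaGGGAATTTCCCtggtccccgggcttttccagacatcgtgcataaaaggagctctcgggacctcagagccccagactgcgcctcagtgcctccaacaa
Ccl25, chr8:4349338-4349587: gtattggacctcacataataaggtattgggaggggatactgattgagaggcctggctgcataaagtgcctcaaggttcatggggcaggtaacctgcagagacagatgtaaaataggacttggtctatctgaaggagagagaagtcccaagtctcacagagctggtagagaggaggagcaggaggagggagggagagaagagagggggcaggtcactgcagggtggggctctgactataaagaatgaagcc
Cx3cl1, chr8:94771930-94772179: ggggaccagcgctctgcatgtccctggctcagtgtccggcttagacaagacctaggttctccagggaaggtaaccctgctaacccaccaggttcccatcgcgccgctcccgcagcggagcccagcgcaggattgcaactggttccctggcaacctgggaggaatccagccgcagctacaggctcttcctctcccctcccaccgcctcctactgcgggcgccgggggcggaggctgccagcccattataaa
The Ccl20 promoter held a single kB match at positions -80 to -71 from the start. Cxcl1 and Cxcl2 each held a pair of kB matches that overlap on opposite strands of the same stretch, at -71 to -61 in Cxcl1 and at -97 to -87 in Cxcl2. No match to any of the 3 motifs was found in the Cx3cl1 window or in the windows of the 2 annotated starts of Ccl25, of which the downstream one is printed. Cxcl12, whose window is not printed, held the CTTTGAT motif only. Among 32851 promoter windows of the same length, 7.25% held kB, 6.75% held TGANTCA and 3.21% held CTTTGAT. A match is a stretch of letters and not evidence of binding.

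Of the 8 chemokine genes with a row, 5 passed the filter on low counts in the comparison of Adenoma with MIN. That comparison asks how polyp organoids differ from normal-looking organoids, both from APCmin/+ mice. Whether the organoids themselves had the same Apc state was not given in the sources used here. Ccl25, Ccl20 and Cx3cl1 were lower in Adenoma, Cxcl1 was higher, and Cxcl16 was not called. In the same comparison 38.7% of the 13744 genes tested were called, 18.5% as higher and 20.1% as lower in Adenoma. The median log2 fold change of the 5 genes was -1.11, beside -0.01 over all genes tested. The comparison of Sulindac with Adenoma sets treated beside untreated polyp organoids. Whether the untreated organoids received the drug's vehicle was not given in the sources used here. In this comparison 4 genes were tested, Cxcl16 was higher, Cxcl1 was lower, and Ccl25 and Cx3cl1 were not called. There 17.4% of 12962 genes were called, 8.32% as higher and 9.10% as lower, and the medians were 0.36 for the 4 genes and -0.01 for all. In the comparison of Sulindac with MIN, Cxcl16 was higher, Ccl25 and Ccl20 were lower, and Cx3cl1 was not called, in a background of 49.7% of 13551 genes called, 23.0% as higher and 26.8% as lower. The medians were -1.67 and -0.03. The medians of the chemokine genes rest on few genes, and Ccl20 and Cxcl1 passed the filter through a single group, so they depend in part on the filter. The comparisons share samples, so their values are given side by side and not as independent results.

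**Figure D1:**
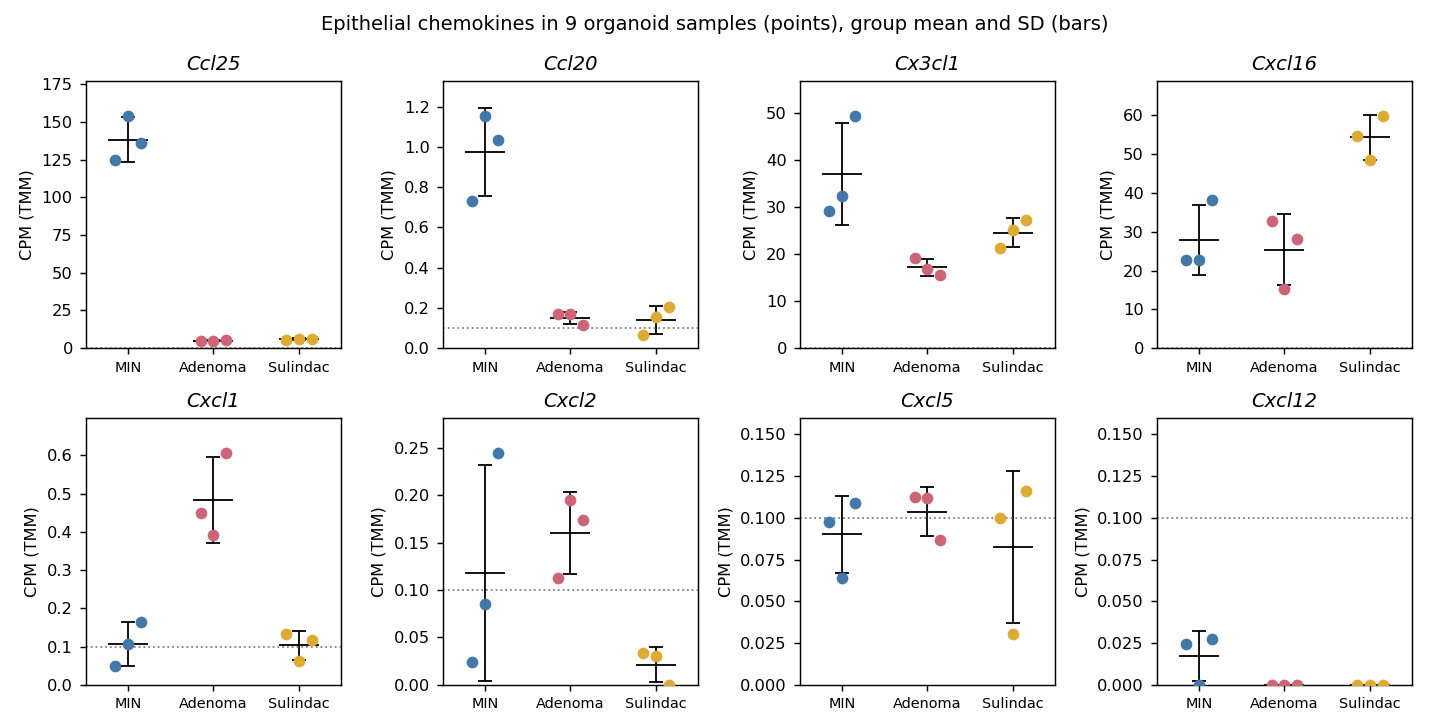
Level of each of the 8 chemokine genes in CPM (vertical axis of each panel) in the 3 MIN, 3 Adenoma and 3 Sulindac samples; points are samples, bars the mean and SD, and the dotted line is the highest level that 3 counts give in any library, 0.10 CPM. Ccl25 stands at 124.8 to 154.1 CPM in MIN and at 4.86 to 6.31 CPM in the other 6 samples. Cxcl1 stands at 0.391 to 0.607 CPM in Adenoma and reaches at most 0.163 CPM elsewhere, where some samples are also above the dotted line.

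Ccl25, the attractant of gut-homing lymphocytes and a product of small intestinal epithelium, had the largest fitted change of the 5 genes tested among these 8. Its level was 124.8, 154.1 and 135.9 CPM in the 3 MIN samples, against 4.86, 4.92 and 5.32 CPM for Adenoma and 5.07, 5.93 and 6.31 CPM for Sulindac. The MIN samples stood far above the other 6, and the Adenoma and Sulindac ranges overlapped. The mean of 138.3 ± 14.8 CPM (SD, n = 3) in MIN was 27.5-fold higher than the 5.03 ± 0.251 CPM (SD, n = 3) in Adenoma, and the edgeR log2 fold change was -4.78 (SE 0.13, adjusted p = 4.78e-08). In these bulk cultures, fewer cells that express a gene and less RNA per cell cannot be told apart.

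After sulindac Ccl25 stood at 5.77 ± 0.638 CPM (SD, n = 3), a log2 difference of 0.21 from Adenoma (SE 0.16, edgeR adjusted p = 0.364). Against MIN it remained 24.0-fold lower in the means, with a log2 fold change of -4.58 (SE 0.13, edgeR adjusted p = 3.30e-08). The lowest Adenoma count was 173 and the lowest Sulindac count 152, so Ccl25 was still measured in every sample. The share of its transcript sequence that also occurs in another gene in stretches of 50 bases was 2.06%, in Elavl1.

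Markers of the absorptive enterocyte of the small intestine moved with Ccl25. All 8 of the markers examined, Alpi, Fabp1, Fabp2, Apoa1, Apoa4, Lct, Sis and Gata4, were called lower in Adenoma than in MIN and in Sulindac than in MIN, and their median log2 fold change was -10.16 in both. Their summed level was 2795 to 4588 CPM in MIN samples, but 72.1 to 78.9 CPM for Adenoma and 78.2 to 87.7 CPM for Sulindac. Outside MIN most of the sum was Gata4, at 67.3 to 73.3 CPM in Adenoma and 72.3 to 83.7 CPM in Sulindac. The smallest change was that of Gata4, a transcription factor of the proximal small intestine, with a log2 fold change of -0.72 in Adenoma (edgeR adjusted p = 0.000282). The part of these shifts in the Ccl25 result was not tested.

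**Figure D2:**
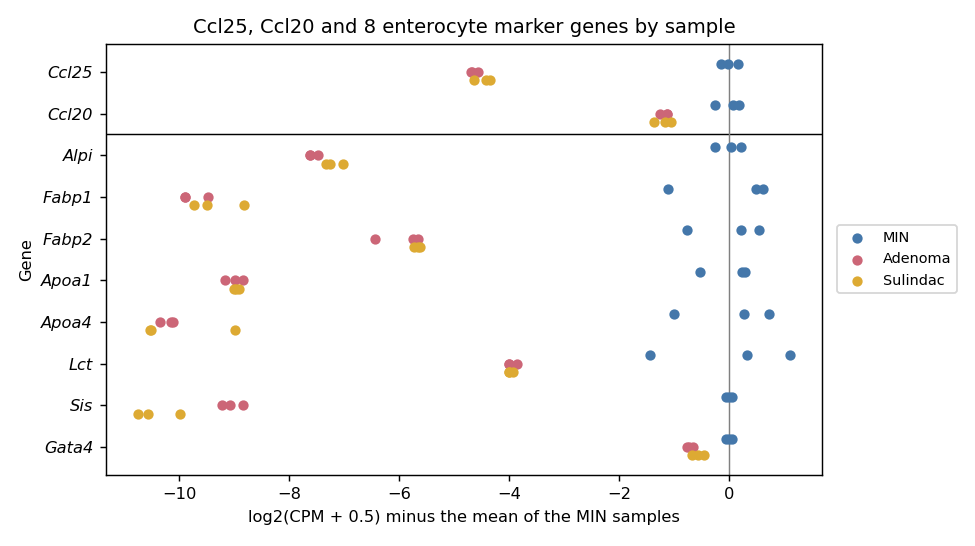
Ccl25, Ccl20 and the 8 enterocyte markers (rows) in the 9 samples (points coloured by group), as log2(CPM + 0.5) minus the mean of the 3 MIN samples (horizontal axis). All Adenoma and Sulindac points of these 10 genes lie to the left of that gene's MIN points. The share of all genes that separate in this way was not counted. Over all genes tested, 20.1% were called lower in Adenoma and 26.8% in Sulindac, both against MIN. Since 0.5 CPM was added before the log, the shift of Ccl20 and of other low genes is understated.

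Ccl20, which attracts dendritic cells and lymphocytes carrying Ccr6 and is a known NF-kB target, was lower in the same groups as Ccl25 but rested on few counts. It had 30, 54 and 38 counts in MIN, 6, 6 and 4 counts in Adenoma and 2, 5 and 7 counts in Sulindac samples. Every MIN sample was above every other sample, and the Adenoma and Sulindac samples lay near or under the limit of 3 counts per library, which corresponds to 0.0641 to 0.10 CPM. The MIN mean was 0.973 ± 0.219 CPM, against 0.151 ± 0.0303 CPM for Adenoma and 0.141 ± 0.0692 CPM for Sulindac (SD, n = 3 each). The log2 fold change was -2.66 in Adenoma against MIN (SE 0.37, edgeR adjusted p = 0.000391) and -2.74 in Sulindac against MIN (SE 0.43, edgeR adjusted p = 0.000616). Ccl20 passed the filter through its MIN counts alone, and the filter removed it from the comparison of Sulindac with Adenoma, where an unfiltered fit gave a log2 difference of -0.04 (edgeR adjusted p = 0.964).

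Cx3cl1, or fractalkine, which attracts monocytes and other cells carrying Cx3cr1, was lower in Adenoma and intermediate after sulindac. Its level was 29.2, 32.3 and 49.3 CPM in the MIN samples, 19.1, 16.8 and 15.4 CPM for Adenoma, and 21.2, 25.0 and 27.2 CPM for Sulindac. No group overlapped another: every Sulindac sample lay above every Adenoma sample and below every MIN sample. The means were 36.9 ± 10.8, 17.1 ± 1.86 and 24.5 ± 3.05 CPM (SD, n = 3 each), and MIN was the most spread because MIN replicate 3 stood above the other two.

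The fall of Cx3cl1 in Adenoma passed the test, with a log2 fold change of -1.11 (SE 0.20, edgeR adjusted p = 0.0018). Without Adenoma replicate 3 the log2 fold change was -1.04 and the adjusted p rose to 0.0119, over the threshold. The difference of Sulindac from Adenoma, 0.52 on the log2 scale (SE 0.14, edgeR adjusted p = 0.0193), and that of Sulindac from MIN, -0.59 (SE 0.20, edgeR adjusted p = 0.0282), did not pass it. With DESeq2 both did, at adjusted p = 0.00326 and 0.00724.

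Cxcl16, the ligand of Cxcr6 on T cells and innate lymphocytes, followed another course, with means in MIN and Adenoma that differed by less than the spread between replicates and a higher level after sulindac. It stood at 22.8, 22.7 and 38.2 CPM in the MIN samples, 32.9, 15.3 and 28.0 CPM for Adenoma, and 54.7, 48.5 and 59.9 CPM for Sulindac. All 3 Sulindac samples were above all of the other 6, and the MIN and Adenoma samples were interleaved. The means were 27.9 ± 8.90, 25.4 ± 9.05 and 54.3 ± 5.73 CPM (SD, n = 3 each). The log2 difference of Adenoma from MIN was -0.13 (SE 0.30, edgeR adjusted p = 0.742), and its sign turned without MIN replicate 3 (0.16), without Adenoma replicate 2 (0.13) and when libraries were scaled by their size alone (0.0023).

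The rise of Cxcl16 against Adenoma was close to the threshold, with a log2 fold change of 1.11 (SE 0.24, edgeR adjusted p = 0.00964). The adjusted p rose to 0.0270 without Adenoma replicate 3, to 0.0303, 0.0225 and 0.0393 without Sulindac replicates 1, 2 and 3, and to 0.0179 with scaling by library size alone, each with a log2 fold change of 0.94 or more. Against MIN the log2 fold change was 0.96 (SE 0.20, edgeR adjusted p = 0.00358). That call was lost without MIN replicate 1 (adjusted p = 0.0125), MIN replicate 2 (0.0132), Sulindac replicate 1 (0.0145) or Sulindac replicate 3 (0.0167). Of the Cxcl16 transcript sequence, 16.9% also occurs in stretches of 50 bases in the overlapping gene Zmynd15, between which reads could have been divided.

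**Figure D3:**
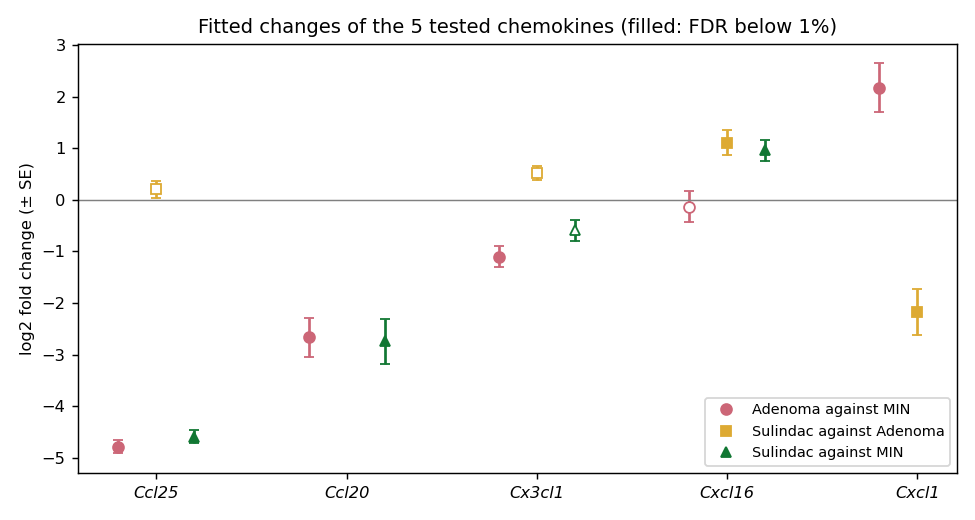
Log2 fold change (vertical axis) of the 5 tested chemokine genes (horizontal axis) in the 3 comparisons (marker shapes); points are edgeR estimates, bars are ± 1 SE, and filled points passed an FDR of 1%. Ccl25 lies at -4.78 and -4.58 in the comparisons with MIN and at 0.21 in Sulindac against Adenoma, where Cxcl16 is the filled square above 0 and Cxcl1 the one below.

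The neutrophil attractants Cxcl1, Cxcl2 and Cxcl5 were all scarce. Cxcl1 had 2, 5 and 6 counts in MIN, 16, 14 and 21 counts in Adenoma, and 4, 2 and 4 counts in Sulindac samples. The Adenoma samples were above all others, and the MIN and Sulindac samples overlapped. In CPM the means were 0.106 ± 0.0574, 0.483 ± 0.112 and 0.104 ± 0.0378 (SD, n = 3 each).

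Cxcl1 was 4.66-fold lower in the mean of Sulindac than in that of Adenoma, with a log2 fold change of -2.17 (SE 0.45, edgeR adjusted p = 0.00701), and it was higher in Adenoma than in MIN by 2.17 on the log2 scale (SE 0.47, edgeR adjusted p = 0.00447). Cxcl1 passed the filter through its Adenoma counts alone. Leaving out any of the 6 libraries of the Sulindac comparison raised the adjusted p over the threshold, to between 0.0173 and 0.0298. In the comparison with MIN this happened without MIN replicate 1 (0.0190), MIN replicate 2 (0.0206), Adenoma replicate 1 (0.0122) or Adenoma replicate 3 (0.0187), and DESeq2 gave 0.0108 there and 0.0173 for Sulindac against Adenoma. Ptprc counts were also highest in Adenoma, at 8, 4 and 4 against at most 1 elsewhere, and Cd3g had 2, 1 and 1 counts there and 0 elsewhere. Other leukocyte markers ran otherwise. S100a8, a neutrophil marker, had 0 counts in MIN, 0, 0 and 5 in Adenoma and 12, 5 and 13 in Sulindac samples, and Cd8a had 19, 18 and 37, 12, 12 and 11, and 5, 4 and 19 counts in the same order. Cd3e, Cd4, Cd79a, Csf1r and S100a9 had at most 6 counts in any sample, and Emr1 and Itgax had 0 in every sample. The part of leukocyte RNA in the Cxcl1 result was not tested.

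Cxcl2 had 1, 4 and 9 counts in MIN, 4, 7 and 6 in Adenoma and 1, 1 and 0 in Sulindac samples, and it did not pass the filter in any comparison. The 2 counts of the Sulindac group against 17 of Adenoma give a ratio of 0.128, with an exact 95% interval of 0.0144 to 0.541 that covers counting error only. Unfiltered edgeR fits gave adjusted p = 0.0402 for Sulindac against Adenoma and 0.622 for Adenoma against MIN. Of the Cxcl2 sequence, 5.84% is shared with other genes in stretches of 50 bases, most with Cxcl3.

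Cxcl5 had 1 to 4 counts in every sample and did not pass the filter, and no difference was detectable at this depth (unfiltered edgeR adjusted p between 0.803 and 0.911 in the 3 comparisons). Cxcl12, which is mainly a stromal chemokine and holds cells carrying Cxcr4 in place, had 1 count in each of MIN replicates 1 and 3 and 0 counts in the other 7 samples, all under the limit of 3 counts. At that depth its absence cannot be told from a level under 0.0641 to 0.10 CPM.

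To order the genes within a group, levels were divided by transcript length, which was taken from GENCODE transcripts. In MIN, Ccl25 was the most abundant, at 163.6 ± 17.5 CPM per kilobase of its median coding transcript, and it was also first with the longest transcript, at 130.7. In Adenoma and Sulindac samples Ccl25 fell to 5.96 and 6.83 CPM per kilobase, under Cxcl16 at 9.42 and 20.1. Its SD there was 0.297 and 0.755, and that of Cxcl16 was 3.35 and 2.12. The place of Cx3cl1 depended on the transcript used. With its median coding transcript of 470 bases it stood at 78.6, 36.4 and 52.1 CPM per kilobase in MIN, Adenoma and Sulindac, and with its longest of 3315 bases at 11.1, 5.16 and 7.39. Ccl20 was at 1.23, 0.190 and 0.178 and Cxcl1 at 0.112, 0.506 and 0.109 CPM per kilobase in the same order of groups, so the pair changed places between MIN and Adenoma with the median transcript.

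The genes whose levels most resembled those of the called chemokines over the 9 samples were named by Pearson's r of log2(CPM + 0.5) among 13866 genes. These values describe 9 points that fall into the 3 groups, so that any gene separating the groups alike scores high. For Ccl25 they were Dmbt1, a secreted mucosal glycoprotein gene (r = 0.9995), and Rab3c (r = 0.9994), and 1197 genes had r over 0.95 with it. The mean of Dmbt1 was 632.8 CPM for MIN, 0.104 for Adenoma and 0.272 for Sulindac. For Ccl20 they were Tnfrsf8 (r = 0.994), which encodes the receptor CD30, and C87977 (r = 0.990), with 760 genes over 0.95. For Cxcl1 they were Six5 (r = 0.992) and Ambp (r = 0.981), with 48 genes over 0.95. For Cx3cl1 they were Eif3c and B4galt1 (both r = 0.974), with 31 genes over 0.95, and for Cxcl16 they were Spryd3 (r = 0.969) and Rhox8 (r = 0.967), with 4 genes over 0.95.

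Most receptors through which these ligands act had few or 0 counts in the organoids. Of 24 chemokine receptor genes with a row, 7 had 0 counts in all 9 samples, among them Ccr6, the receptor of Ccl20. Ccr9, the receptor of Ccl25, had 1 to 9 counts per sample, Cx3cr1 had 2 to 8, and Cxcr6 had 0 to 6. Cxcr2, the receptor of Cxcl1, Cxcl2 and Cxcl5, was the exception, with 139 to 318 counts. Its mean was 4.68 ± 1.50 CPM for MIN, 6.11 ± 0.524 for Adenoma and 6.95 ± 2.52 for Sulindac (SD, n = 3 each), and it was not called in any comparison (edgeR adjusted p = 0.229 for Adenoma against MIN, 0.608 for Sulindac against Adenoma and 0.156 for Sulindac against MIN).

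The 4 receptors tested in each comparison were Cxcr2, Cxcr4, Xcr1 and Ccrl2, and none was called in either comparison with MIN. Cxcr4, the receptor of Cxcl12, had 11, 7 and 3 counts in MIN, 11, 15 and 17 in Adenoma, and 15, 19 and 18 in Sulindac samples, and its log2 difference of 1.65 between Sulindac and MIN missed the threshold (SE 0.44, edgeR adjusted p = 0.0106). Ccrl2, an atypical receptor that binds chemerin, was lower in Sulindac than in Adenoma, with 12, 13 and 4 counts against 33, 54 and 46 (log2 fold change -2.04, SE 0.44, edgeR adjusted p = 0.00874). The call on Ccrl2 was lost without any of the 6 libraries in turn, which left 0 receptors lower. Ccr7, which guides lymphocytes and dendritic cells to lymph nodes, had 0, 2 and 1 counts in MIN, 11, 9 and 11 in Adenoma and 3, 4 and 3 in Sulindac samples. It was removed by the filter, and an unfiltered fit gave a log2 fold change of 3.44 for Adenoma against MIN (edgeR adjusted p = 0.00247). Ptprc counts, given above, were highest in the same group, but Cd8a had its highest mean in MIN and S100a8 in Sulindac. The part of leukocyte RNA in the Ccr7 values was not tested.

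Among 32 other chemokine ligand genes, 13 had 0 counts in all samples, 20 never exceeded 3 counts, and 8 reached 10 counts in a sample. In Adenoma against MIN 6 were tested, of which Ccl27a and Ccl27b were higher and Ccl9 and Cxcl11 lower. In Sulindac against Adenoma 4 were tested and 3 were lower, Ccl6, Ccl27a and Ccl27b. In Sulindac against MIN 4 were tested and Ccl6, Ccl9 and Cxcl11 were lower. Over all genes tested, 38.7%, 17.4% and 49.7% were called in the 3 comparisons, and 20.1%, 9.10% and 26.8% were called lower. The median log2 fold changes were -0.60, -1.89 and -3.89, beside -0.01, -0.01 and -0.03 over all genes. Few genes enter each ligand median. Cxcl11 and Ccl27b, and Ccl6 in both comparisons with Sulindac, passed the filter through the counts of a single group. The ligand medians therefore depend in part on the filter and do not describe the family.

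Ccl9, a rodent ligand of the myeloid receptor Ccr1, was the most counted of these, with 633, 694 and 215 counts in MIN, 68, 100 and 63 in Adenoma, and 39, 36 and 46 in Sulindac samples. Every MIN sample was above all the others, although MIN replicate 3 was well under the other two. The log2 fold change was -2.46 in Adenoma (SE 0.38, edgeR adjusted p = 0.000693) and -3.27 in Sulindac (SE 0.39, edgeR adjusted p = 0.000147), both against MIN. Ccl6, of the same family, had 87, 103 and 53 counts in MIN, 24, 46 and 29 in Adenoma and 2, 3 and 3 in Sulindac samples. It was the ligand with the deepest fall after sulindac among those tested, by 3.44 on the log2 scale (SE 0.45, edgeR adjusted p = 0.00112), and the 8 counts of the Sulindac group against 99 of Adenoma give a ratio of 0.0882 (exact 95% interval 0.0371 to 0.181).

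Ccl27a, a ligand of Ccr10 known from skin, had 195, 213 and 257 counts in Adenoma against 40, 69 and 76 in MIN and 73, 95 and 84 in Sulindac samples. It rose by 2.07 on the log2 scale in Adenoma (SE 0.30, edgeR adjusted p = 0.000473) and was lower after sulindac by a log2 fold change of -1.27 (SE 0.19, edgeR adjusted p = 0.00182). Its Sulindac level was not called different from MIN (edgeR adjusted p = 0.0474). Reads of Ccl27a and Ccl27b are uncertain, since 45.0% and 98.1% of their sequence occurs in other genes in stretches of 50 bases. Cxcl11, an interferon-induced ligand of Cxcr3, had 43, 23 and 33 counts in MIN and at most 2 in any other sample, a ratio of 0.0238 for Adenoma against MIN (exact 95% interval 0.00284 to 0.0881), and 40.4% of its sequence is shared, most with Gm2673. Ccl5, an attractant of T cells, had 14, 8 and 17 counts in Adenoma, at most 2 in MIN, and 8, 1 and 0 in Sulindac samples. It was removed by the filter, and an unfiltered fit gave a log2 fold change of 3.77 for Adenoma against MIN (SE 0.75, edgeR adjusted p = 0.00152), which made 3 ligands higher in place of 2. Among the leukocyte markers given above, Ptprc was highest in the same group, but Cd8a had its highest mean in MIN and S100a8 in Sulindac. The part of leukocyte RNA in the Ccl5 values was not tested.

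**Figure D4:**
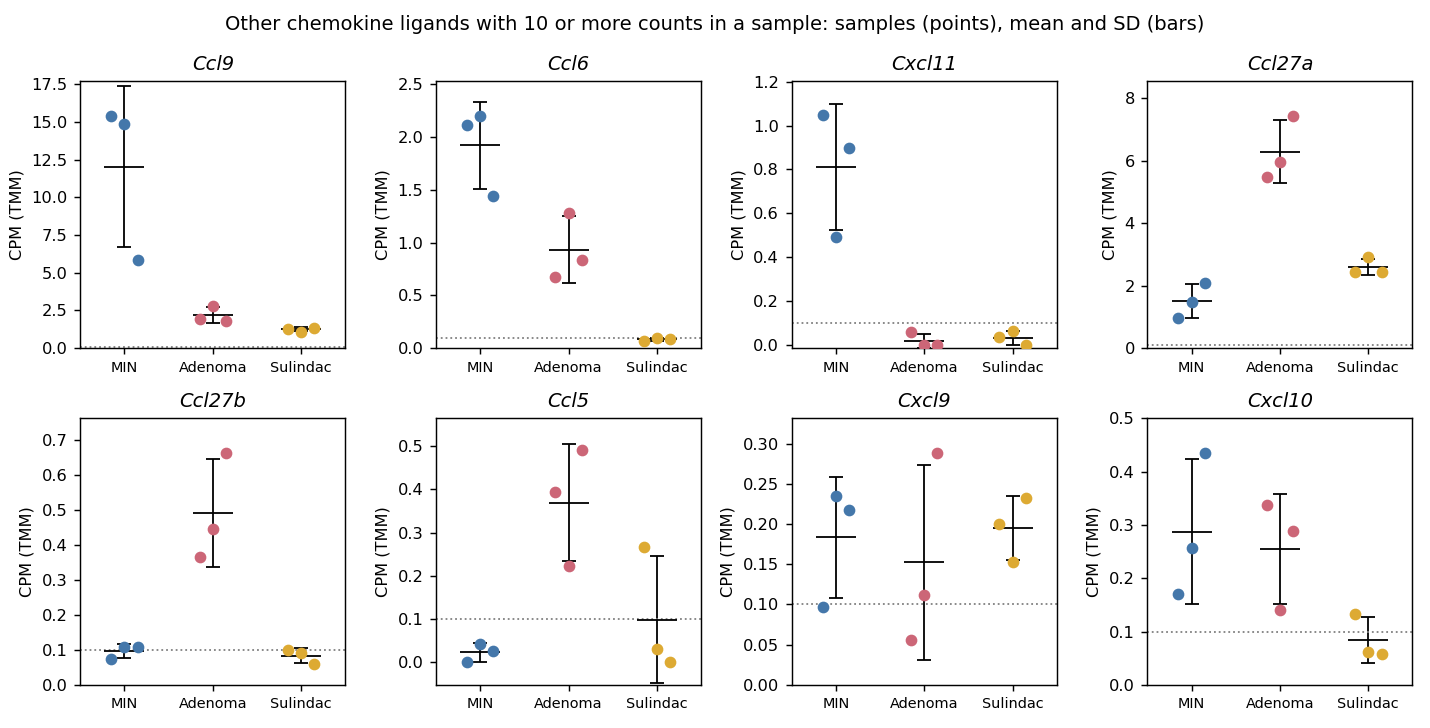
Other chemokine ligand genes that reached 10 counts in a sample, in CPM (vertical axis of each panel), with samples as points, the mean and SD as bars, and the dotted line at 0.10 CPM, the highest level that 3 counts give in any library. Ccl9, Ccl6 and Cxcl11 are highest in the MIN samples, and Ccl27a, Ccl27b and Ccl5 have higher means in Adenoma than in either other group.

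The proteases that cut chemokines were examined last. Dpp4, a brush border enzyme that removes the first 2 residues of many chemokines, had 6330 to 6647 counts in MIN samples and 0, 1 and 1 in Adenoma and 1, 1 and 7 in Sulindac samples. The 2 Adenoma counts against 19431 in MIN give a ratio of 0.000121 (exact 95% interval 1.47e-05 to 0.000437), with an edgeR adjusted p of 1.65e-08. Dpp4 moved with the enterocyte markers given above. Adam10, which sheds Cx3cl1 and Cxcl16, averaged 196.7 ± 18.4, 233.0 ± 19.8 and 249.2 ± 6.17 CPM in MIN, Adenoma and Sulindac (SD, n = 3 each), and it was called higher in Sulindac than in MIN, by a log2 fold change of 0.34 (SE 0.09, edgeR adjusted p = 0.00918). That call was lost, leaving 0 of the 3 proteases higher, without MIN replicate 1 or 2 or without any Sulindac replicate. Adam17 averaged 59.3 ± 6.53, 48.2 ± 4.28 and 47.2 ± 3.24 CPM and was not called.

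**Figure D5:**
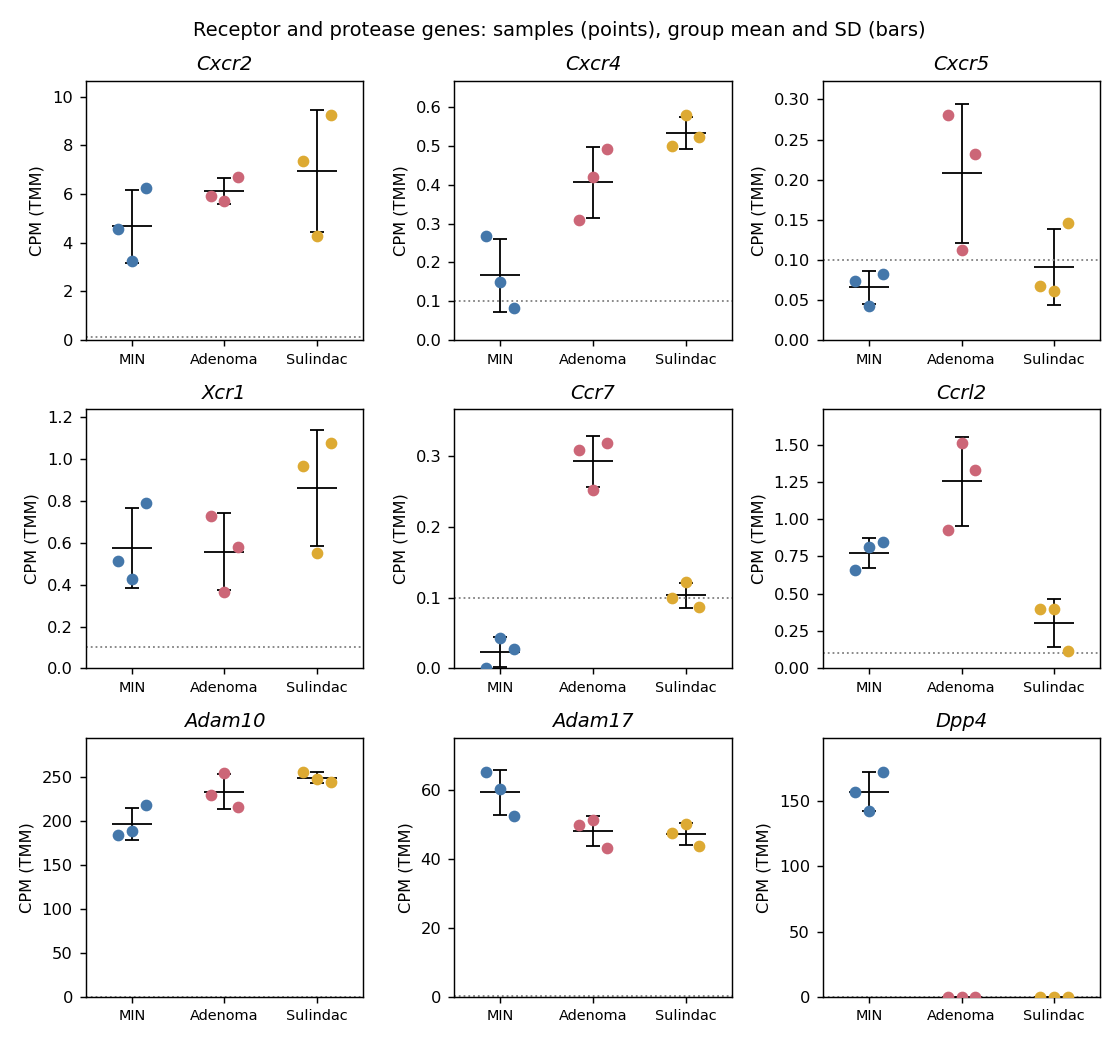
Chemokine receptor genes and the 3 proteases in the 9 samples in CPM (vertical axis of each panel), with samples as points, the mean and SD as bars, and the dotted line at 0.10 CPM, the highest level that 3 counts give in any library. Cxcr2 lies well above the line in all 3 groups, whose ranges overlap, Ccrl2 is lower in the 3 Sulindac samples than in the 3 Adenoma samples, and Dpp4 lies near 0 outside MIN.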

How the data were processed

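RNA from 9 organoid samples, 3 in each group, was sequenced, and the authors deposited raw counts per gene for each sample; the submitters' processing notes name Bowtie2 2.2.4, RSEM and the build mm9, with no roles given, and the annotation is not given in the sources used here. MIN replicate 1 was deposited as 2 runs with their sum, and the sum was used. Samples were grouped by the labels. Counts were tested with edgeR 4.0.16 in R 4.3.3 (TMM, filterByExpr, glmQLFit with robust fitting, glmQLFTest, an FDR of 1% by Benjamini-Hochberg over all genes tested), with only the 2 groups compared in each fit, and two-sided. No label ties a sample to an animal, so whether the samples are independent could not be checked. The test treated them as independent and drew on the spread between samples, pooled in part over genes. TMM CPM was computed over all 9 samples. A floor of 3 counts per library was used, and intervals (exact, 95%) and floors cover counting error only. Depth ran from 30881206 to 48412477 counts.

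Members and gene lists were chosen with earlier results of these data known. The named genes are all members, genes of the lists, and the 2 genes most correlated with each called member. Transcript lengths and shared 50-base stretches came from GENCODE M21, a build other than that of the files, so no coordinates were taken from it. Promoters are RefSeq sequences. In Adenoma and MIN, samples with the same number deviated together (correlations of 0.113 to 0.192 for the 3 pairs), so the number was also fitted as a block. Alternatives were another scaling, filter, threshold, DESeq2 1.42.0, a fit of all 9 samples, the block, and leaving out each sample. The scripts were tested on simulated data.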

Additional observations from a re-analysis of the deposited data

How the results depend on the processing

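The calls on Ccl25 and Ccl20 against MIN held under every alternative that could be fitted; those on Cxcl1, Cxcl16 and Cx3cl1 depended on the libraries named with them. At least 10 counts in every sample left 0 chemokine members higher in Adenoma against MIN. It left 0 higher and 0 lower in Sulindac against Adenoma and 1 lower in Sulindac against MIN. Of the other ligands, 1 was higher and 1 lower, 1 lower, and 1 lower in the 3 comparisons. For receptors, 0 were lower in Sulindac against Adenoma. For proteases, 0 were lower in Adenoma against MIN, and 0 were higher and 0 lower in Sulindac against MIN. Genes with fewer counts, Dpp4 among them, were not tested under this filter. Cxcl16 and Adam10 had at least 549 and 7455 counts in every sample and were still tested. Cxcl16 in Sulindac against Adenoma and Adam10 in Sulindac against MIN missed the threshold there. For Sulindac against Adenoma, 0 members were higher with library size alone, with no filter and in the fit of all 9 samples, 2 with DESeq2 and at an FDR of 5%, and 0 were lower with DESeq2. DESeq2 also left 0 members higher in Adenoma against MIN, and a 2-fold minimum 0 members and 0 proteases higher in Sulindac against MIN. With no filter or at an FDR of 5%, 1 receptor was higher in Adenoma against MIN. In Sulindac against MIN, an FDR of 5% gave 1 other ligand higher, 1 receptor higher and 1 lower, and 2 proteases lower, the fit of all 9 samples gave 1 receptor and 0 proteases higher, and RLE scaling gave 0 proteases higher.

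With the replicate block, no call on a member changed in Adenoma against MIN (adjusted p = 3.57e-06 for Ccl25). In the other 2 comparisons the same measure was mixed, with correlations of -0.07 to 0.253 and of -0.03 to 0.396. Their means were 0.129 and 0.206, and those of samples with different numbers were -0.064 and -0.108. In Adenoma against MIN the same means were 0.143 and -0.067. Deviations from a group's mean sum to 0, so the means for different numbers nearly follow from the others and are no separate baseline. A pairing in the other 2 comparisons was not settled. The block gave 0 members and 0 receptors lower in Sulindac against Adenoma (Cxcl1 at edgeR adjusted p = 0.0115, Ccrl2 at 0.0122). In Sulindac against MIN it gave 0 proteases higher and 2 lower. There Cx3cl1 passed, at adjusted p = 0.00427.

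Leaving out 1 sample at a time gave, for Adenoma against MIN, 0 to 1 members higher and 2 to 3 lower, 2 to 3 other ligands higher, and 1 receptor higher in each; for Sulindac against Adenoma, 0 to 1 members higher and 0 lower, 1 to 3 other ligands lower (1 without Sulindac replicate 1 or 3) and 0 receptors lower; for Sulindac against MIN, 0 to 1 members higher and 2 lower, 0 to 1 other ligands and 0 to 1 receptors higher, and proteases 0 to 1 higher and 1 to 2 lower. Scaling by library size alone moved the median over all genes tested, on the log2 scale, to 0.12 in Adenoma against MIN and to -0.18 in Sulindac against Adenoma, and the share of calls that were higher from 47.8% to 23.3% in the latter; under it Cxcl16 in Adenoma against MIN turned from -0.13 to 0.0023, and leaving out 1 sample at a time gave -0.36 to 0.16 there. The causes were not tested. With the longest transcript, levels per kilobase were 0.687, 0.106 and 0.0996 for Ccl20 in MIN, Adenoma and Sulindac, 130.7, 4.76 and 5.45 for Ccl25, and 11.1, 5.16 and 7.39 for Cx3cl1. Depth limits Cxcl2, Cxcl5 and Cxcl12, which never exceeded 9 counts.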
